A study of Homo sapiens with 6 samples.

Results

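The nuclear genes of respiratory complex I were taken as the protein-coding genes whose symbol begins with NDUF. This rule found 48 genes among the 60671 in the count table, of which 47 are described here and 46 had enough reads to be tested. It uses names alone and no measured value. By role, the 47 were 6 core subunits, 30 accessory subunits, 8 assembly factors named NDUFAF and 3 genes that are not part of the finished complex (NDUFA4, NDUFA4L2 and the readthrough gene NDUFC2-KCTD14).

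The RNA-sequencing counts come from MM.1S, an established myeloma line of human origin. The WT group (3 libraries) is the line carrying green fluorescent protein and the click beetle red luciferase from a lentivirus. The CD38 KO group (3 libraries, column name E9) is a clone of that line in which CD38, a surface enzyme that consumes NAD+, was disrupted with CRISPR/Cas9, and it carries the same reporters. Before RNA extraction, live WT cells were sorted as CD38-positive and live KO cells as CD38-negative, so the knockout, the clone and the sort gate cannot be told apart in these groups. The replicates of a group came from 1 sorted population of 1 line, so the p-values measure the spread between such preparations and not between clones. The comparison asked how the knockout line differs in its transcripts from the parental line.

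Complex I is the entry point of electrons from NADH into the mitochondrial respiratory chain. An arm that reaches into the matrix holds the FMN and the chain of iron-sulfur clusters along which electrons pass to ubiquinone, and an arm in the inner membrane pumps protons. Core subunits carry out the chemistry, accessory subunits surround them, and assembly factors build the complex but do not stay in it. Some core subunits, the MT-ND proteins, are encoded in mitochondrial DNA, so that a complete complex needs transcripts from both genomes. The complex turns NADH into NAD+, the substrate of CD38.

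Library totals ranged from 61515519 to 72335496 counts. CPM is the count scaled to the library's size with TMM composition factors, and a count of 0 allows up to 3 counts, or 0.041 to 0.050 CPM, by counting error alone. CD38 itself had 40.6 ± 1.90 CPM in WT against 0.972 ± 0.322 in CD38 KO (SD, n = 3 each), a log2 fold change of -5.39. The plasma cell markers SDC1, XBP1, IRF4, PRDM1, TNFRSF17, SLAMF7 and JCHAIN were abundant in all 6 libraries. The 9 markers of T cells, myeloid, erythroid, fibroblast and epithelial cells summed to 25.6 to 27.1 CPM in WT and 36.2 to 38.9 CPM in CD38 KO, most of it HBB, and to 2.11 to 3.67 and 5.90 to 7.17 CPM without HBB. CD3D, CD14, LYZ and COL1A2 had at most 4 counts in any library, and CD3E moved from 0.979 ± 0.0760 CPM in WT to 4.83 ± 0.359 in CD38 KO. The part of these transcripts in the results below was not tested.

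Nuclear complex I transcripts moved in both directions and by small amounts. In edgeR's quasi-likelihood test, 12 of the 46 tested members were higher and 8 were lower in CD38 KO at an adjusted p under 0.05, against 22.8% and 21.6% of all 20120 tested genes, and 26 did not pass. The 20 called members are 43.5% of those tested, near the background of 44.4% for all genes and below the 56.4% of protein-coding genes. Among protein-coding genes with at least 10 CPM in WT, 63.5% were called. None was called at 2-fold or more, where 11.3% of all genes were. Taken without sign, the median log2 fold change was 0.145 for the members, 0.29 for protein-coding genes and 0.22 for the 8497 protein-coding genes with at least 10 CPM in WT, of which 4.86% were called at 2-fold. The signed median was 0.05, beside 0.00 for all genes. With library size alone as the scaling, which moved the median of all genes to -0.08, the split became 10 higher and 12 lower and the members' median -0.03. The 2 groups stood apart with no overlap in CPM for 22 members (47.8%), against 52.5% of all genes. For the protein-coding genes with at least 10 CPM in WT that share was 69.1%.

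**Figure D1:**
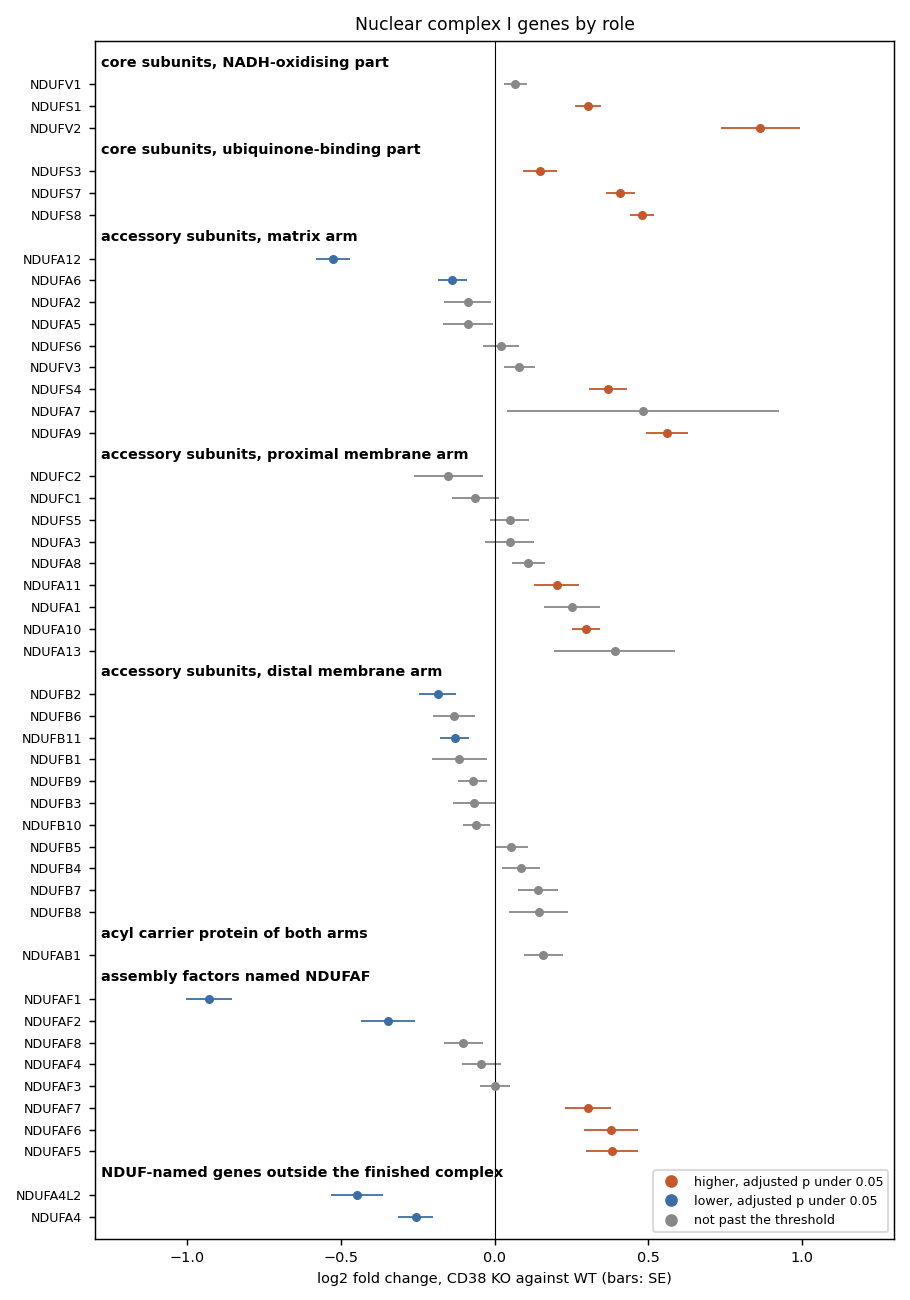
Log2 fold change (x axis, CD38 KO against WT) of the 46 tested members, one point per gene with its SE as a bar, grouped by role and coloured by call at an adjusted p under 0.05. All 6 core subunits lie above 0 (5 of 6 with library size alone), members of the distal membrane arm lie close to 0, and NDUFAF1 (-0.93) and NDUFV2 (0.86) lie farthest out.

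The 6 core subunits described had calls in 1 direction: 5 rose, none fell, and all 6 had estimates above 0, with a median log2 fold change of 0.36. Beside them, 22.8% of all tested genes were higher and 21.6% lower. With library size alone as the scaling, NDUFV1 came out slightly below 0 and 4 of the 6 were called higher. The 6 genes were few and share their libraries, and no test of the group was made.

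NDUFS8, whose protein carries iron-sulfur clusters of the arm that reaches ubiquinone (chr11:68030617-68036644; gene coordinates are those of GENCODE 29 on GRCh38), had 191, 189 and 191 CPM in the WT libraries and 255, 273 and 268 CPM in the CD38 KO libraries. Every KO library was above every WT library. Its log2 fold change of 0.48 ± 0.040 (SE, adjusted p = 2.27e-09, edgeR) had the smallest adjusted p of the 36 nuclear subunits described. NDUFS7, which binds the last iron-sulfur cluster before ubiquinone (chr19:1383527-1395589), was at 86.1, 79.8 and 81.7 CPM in the WT libraries and 107, 115 and 107 CPM in the CD38 KO libraries. Here too the groups stood apart, with a log2 fold change of 0.41 ± 0.048 (adjusted p = 4.10e-07, edgeR). NDUFS1, the largest nuclear-encoded subunit and the holder of several clusters of the NADH-oxidising part (chr2:206114817-206159603), gave 128, 131 and 131 CPM in the WT libraries and 156, 165 and 159 CPM in the CD38 KO libraries. It rose by 0.30 ± 0.042 on the log2 scale (adjusted p = 3.53e-06, edgeR), again with no overlap.

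NDUFS3, a core subunit with no cofactor of its own, moved less. Its libraries held 62.0, 65.8 and 64.8 CPM in the WT libraries and 66.1, 76.3 and 70.9 CPM in the CD38 KO libraries, and the lowest KO value was just above the highest WT value. The log2 fold change was 0.15 ± 0.055 (adjusted p = 0.036, edgeR), a call that was lost in 9 of 18 alternative analyses. NDUFV1, which binds FMN and accepts the electrons of NADH, was measured at 476, 452 and 462 CPM in the WT libraries and 481, 496 and 481 CPM in the CD38 KO libraries. Its groups did not overlap, yet the log2 fold change of 0.07 (95% interval -0.01 to 0.14, adjusted p = 0.149, edgeR) did not pass.

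NDUFV2, whose protein holds an iron-sulfur cluster beside FMN (chr18:9102630-9134345), had the largest estimated rise of the members by its own counts and the lowest CPM of the 6 core subunits. Its counts were 323, 395 and 309 in WT and 618, 493 and 581 in CD38 KO, or 4.36, 5.96 and 4.70 CPM in the WT libraries and 9.67, 8.28 and 9.38 CPM in the CD38 KO libraries. The lowest KO library was above the highest WT library, and the log2 fold change was 0.86 ± 0.13 (adjusted p = 1.10e-05, edgeR). A processed pseudogene, NDUFV2P1, had more counts than the gene itself, 2091, 2216 and 2003 in WT and 2119, 2634 and 2540 in CD38 KO, with a log2 fold change of 0.36. Added together, gene and pseudogene gave a log2 fold change of 0.44 (adjusted p = 2.39e-04, edgeR), an alternative chosen after seeing the data, and this value is below those of NDUFA9 and NDUFS8. The antisense gene NDUFV2-AS1 fell by 0.49 on the log2 scale. How reads of near-identical copies were assigned is not given in the sources used here. The size of the NDUFV2 change is therefore uncertain.

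**Figure D2:**
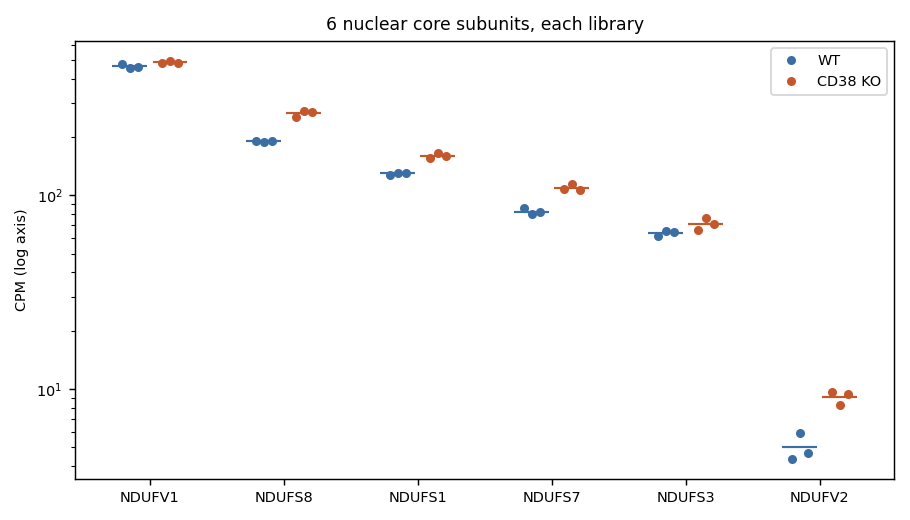
CPM (log axis) of the 6 nuclear core subunits in each library, WT in blue and CD38 KO in orange, with a line at each group's mean, ordered by the WT mean. The groups are apart for NDUFS8, NDUFS1, NDUFS7 and NDUFV2, and close for NDUFV1 and NDUFS3.

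Accessory subunits were called 4 times in each direction among 30, beside 22.8% higher and 21.6% lower of all tested genes. In the matrix arm, 2 of 9 rose and 2 fell. NDUFA9, which sits where the arms meet and binds a nucleotide cofactor (chr12:4649095-4694317), had 24.5, 25.8 and 24.2 CPM in the WT libraries and 33.8, 37.3 and 38.8 CPM in the CD38 KO libraries. All KO libraries exceeded all WT libraries, for a log2 fold change of 0.56 ± 0.068 (adjusted p = 7.18e-07, edgeR). NDUFS4, a late-joining subunit whose loss causes Leigh syndrome (chr5:53560633-53683340), stood at 39.7, 45.2 and 43.3 CPM in the WT libraries and 51.4, 58.1 and 55.7 CPM in the CD38 KO libraries. The groups did not overlap, and the log2 fold change was 0.37 ± 0.061 (adjusted p = 4.22e-05, edgeR).

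NDUFA12, which is added at the tip of the matrix arm late in assembly (chr12:94897055-95003770), was the accessory subunit with the largest fall. It had 82.8, 89.8 and 91.6 CPM in the WT libraries and 56.9, 64.0 and 62.8 CPM in the CD38 KO libraries. Every KO library was below every WT library, and the log2 fold change was -0.52 ± 0.055 (adjusted p = 9.13e-08, edgeR). NDUFA6, a LYR-motif protein that holds an acyl carrier protein, fell by 0.14 on the log2 scale (adjusted p = 0.0236, edgeR), from 125 ± 6.14 CPM in WT to 114 ± 5.09 in CD38 KO (SD, n = 3 each). That call was lost in 4 of 18 alternatives. The other 5 matrix-arm members, NDUFA2, NDUFA5, NDUFA7, NDUFS6 and NDUFV3, did not pass.

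In the membrane arm, subunits near and far from the matrix arm were counted apart. The shares over all tested genes, 22.8% higher and 21.6% lower, stand beside these small counts. A difference between these parts was not tested. Of 9 proximal subunits, 2 rose and none fell. NDUFA10, a kinase-like protein on the matrix side (chr2:239892450-240025402), was at 76.7, 74.8 and 76.4 CPM in the WT libraries and 91.9, 94.9 and 93.3 CPM in the CD38 KO libraries. The groups were far apart relative to their spread, with a log2 fold change of 0.30 ± 0.045 (adjusted p = 1.23e-05, edgeR). NDUFA11, a membrane subunit, had 24.9 ± 1.29 CPM in WT against 28.7 ± 1.97 in CD38 KO (SD, n = 3 each), a log2 fold change of 0.20 (adjusted p = 0.0278, edgeR) that did not pass in 5 of 18 alternatives. The other 7, NDUFA1, NDUFA3, NDUFA8, NDUFA13, NDUFC1, NDUFC2 and NDUFS5, did not pass. NDUFA1 came nearest, at 0.25 (95% interval 0.04 to 0.46, adjusted p = 0.0511, edgeR), and passed in 7 alternatives.

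Of 11 distal subunits, none rose and 2 fell, both by little. NDUFB2 had 96.3 ± 7.47 CPM in WT against 84.7 ± 5.88 in CD38 KO (SD, n = 3 each), a log2 fold change of -0.19 (adjusted p = 0.0161, edgeR). NDUFB11, an X-linked subunit, had 135 ± 4.42 CPM in WT against 124 ± 7.11 in CD38 KO, a log2 fold change of -0.13 (adjusted p = 0.0307, edgeR). With library size alone 5 were called lower, and without WT replicate 2 or without KO replicate 1 none was. One distal subunit was called higher without KO replicate 1, with the replicate number as a block and with scaling that follows transcript length. The other 9, NDUFB1 and NDUFB3 to NDUFB10, spanned -0.13 to 0.14 on the log2 scale. NDUFAB1, the acyl carrier protein found in both arms, was at 0.16 (95% interval 0.02 to 0.30, adjusted p = 0.0563, edgeR).

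The 8 assembly factors named NDUFAF held the largest fall. NDUFAF1 (chr15:41387349-41402519), a member of the complex that assembles the membrane arm, had 25.6, 27.9 and 26.9 CPM in the WT libraries and 13.7, 14.8 and 13.9 CPM in the CD38 KO libraries. KO libraries were at 52.5% of the WT mean, with no overlap, and the log2 fold change was -0.93 ± 0.076 (adjusted p = 1.91e-09, edgeR). NDUFAF2, a paralog of NDUFA12 that holds its place during assembly, also fell, from 17.1 ± 1.55 CPM in WT to 13.5 ± 0.404 in CD38 KO (SD, n = 3 each), by 0.35 on the log2 scale (adjusted p = 0.0028, edgeR). Paralog and subunit were both lower in the KO libraries.

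Another 3 assembly factors rose. NDUFAF5, which hydroxylates an arginine of NDUFS7, had 13.9, 13.8 and 15.5 CPM in the WT libraries and 18.3, 20.1 and 17.9 CPM in the CD38 KO libraries. NDUFAF7, a protein arginine methyltransferase, had 21.3, 22.1 and 22.2 CPM in the WT libraries and 28.4, 24.6 and 28.0 CPM in the CD38 KO libraries. NDUFAF6, which acts early in assembly, had 12.9, 13.5 and 11.8 CPM in the WT libraries and 17.4, 16.8 and 15.5 CPM in the CD38 KO libraries. The groups were apart for each of them, and the log2 fold changes were 0.38, 0.30 and 0.38, with adjusted p-values of 7.69e-04, 0.00188 and 0.00131 (edgeR). NDUFAF3 and NDUFAF4, which work together on the early matrix-arm intermediate, were at 0.00 (95% interval -0.10 to 0.10) and -0.04 (-0.18 to 0.09). NDUFAF8, the partner of NDUFAF5, was at -0.10 (-0.24 to 0.03); none of these 3 passed.

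Both measured genes outside the finished complex fell. NDUFA4, now assigned to cytochrome c oxidase, had 216, 253 and 244 CPM in the WT libraries and 186, 205 and 207 CPM in the CD38 KO libraries, a log2 fold change of -0.26 ± 0.056 (adjusted p = 0.00142, edgeR). NDUFA4L2, its hypoxia-inducible paralog, had 18.9, 19.5 and 18.4 CPM in the WT libraries and 12.9, 15.4 and 13.4 CPM in the CD38 KO libraries, a log2 fold change of -0.45 ± 0.086 (adjusted p = 1.91e-04, edgeR). In each case all KO libraries were below all WT libraries. NDUFC2-KCTD14 had 0 counts in all 6 libraries, which allows up to 3 counts per library by counting error alone, and was not tested. On the same strand, NDUFC2 covers 65.7% and KCTD14 34.3% of its principal transcript. How reads shared by overlapping genes were counted is not given, so its 0 counts may not bound its level.

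Of the 26 members that did not pass, 24 had at least 10 CPM in WT. Their 95% intervals reached at most 0.46 in size on the log2 scale, with a median outer bound of 0.22. The other two were NDUFA7, with counts of 22, 17 and 15 in WT and 26, 15 and 27 in CD38 KO, and NDUFA13, with 125, 127 and 107 in WT and 164, 117 and 144 in CD38 KO. Their intervals, -0.44 to 1.40 and -0.02 to 0.80, were too wide at this depth to show changes of the size seen in other members. NDUFA13 is a cell-death regulator as well as a subunit.

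Levels between members were compared per kilobase of the principal transcript. In WT they ran from 290.5 CPM per kilobase for NDUFV1 and 241 for NDUFS8 to 1.76 for NDUFA13 and 0.434 for NDUFA7, with a median of 65.2, although the subunits stand in fixed ratio in the complex. NDUFA7, NDUFA13, NDUFV2 and NDUFB8 had the 4 lowest CPM in WT. On the same strand, other annotated genes cover 75.9%, 44.1%, 82.9% and 71.7% of their principal transcripts, and 67.0% of that of NDUFA11; each of those overlapping genes had at most 4 counts in any library. How reads shared by overlapping genes were counted is not given in the sources used here, and its part in these low levels was not tested. On the opposite strand, RBM10 covers 45.8% of NDUFB11, RNF113A 44.5% of NDUFA1 and NDUFB2-AS1 29.6% of NDUFB2. In that order, these overlapping genes had 116, 41.1 and 0.597 CPM in WT. Their log2 fold changes were -0.13, 0.04 and -1.06, beside -0.13, 0.25 and -0.19 for the members. The antisense gene AC005329.3 covers 10.2% of NDUFS7 and went from 10.0 ± 1.25 CPM in WT to 1.05 ± 0.404 in CD38 KO (SD, n = 3 each). Without a known strand setting, reads of such pairs cannot be told apart.

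Summed over genes, the 6 nuclear core subunits had 947, 924 and 936 CPM in WT and 1075, 1134 and 1095 CPM in CD38 KO. All KO sums were above all WT sums. The 30 accessory subunits had 2069, 2313 and 2267 CPM in WT and 2098, 2308 and 2334 CPM in CD38 KO, with overlapping groups. The 8 assembly factors overlapped too, at 367, 387 and 391 CPM in WT against 349, 387 and 377 CPM in CD38 KO. In bulk RNA, a change in the number of cells expressing a gene and in its RNA per cell cannot be told apart.

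The 7 mitochondrially encoded subunits all rose in the same libraries. Their sum was 6383, 6359.6 and 6514 CPM in WT and 13703, 12537 and 13199 CPM in CD38 KO. All 7 were called higher, with log2 fold changes from 0.84 for MT-ND6 to 1.47 for MT-ND3 and a median of 1.04. MT-ND4, one of the proton-pumping subunits, rose by 1.15 ± 0.035 (adjusted p = 2.95e-16, edgeR), and MT-ND1, which lies at the entry of the ubiquinone pocket, by 1.08 ± 0.035 (adjusted p = 8.81e-16, edgeR). MT-ND2, MT-ND5 and MT-ND4L rose by 0.98, 0.96 and 1.04 on the log2 scale. The ratio of summed mitochondrial to summed CPM of the 36 nuclear subunits was 2.04 ± 0.076 in WT and 3.94 ± 0.35 in CD38 KO (SD, n = 3 each). The median over all 23 tested genes of the mitochondrial genome was also 1.04. Without the mitochondrial genes in the fit, 11 nuclear members were higher and 8 lower.

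**Figure D3:**
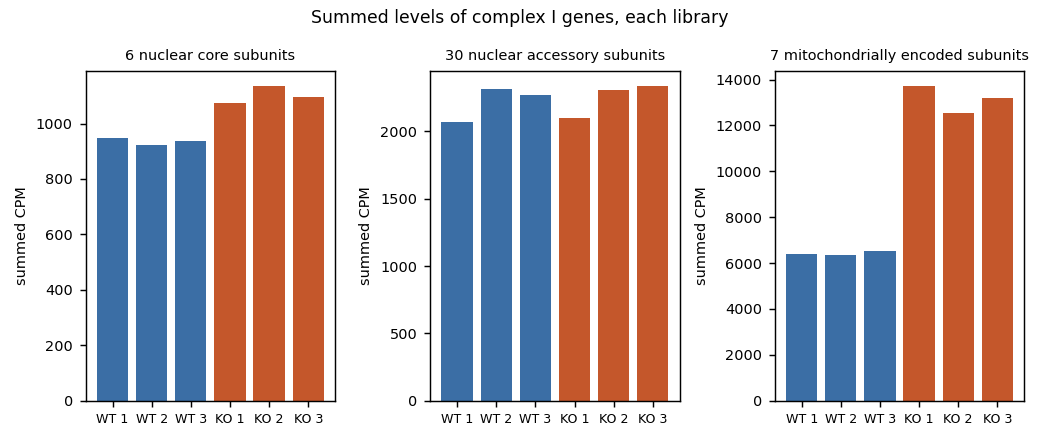
Summed CPM (y axis, from 0) of the 6 nuclear core, 30 nuclear accessory and 7 mitochondrially encoded subunits in each of the 6 libraries, WT in blue and CD38 KO in orange. The mitochondrial sum is 12537 to 13703 CPM in CD38 KO against 6359.6 to 6514 in WT, the core sum is higher in every KO library, and the accessory sums overlap.

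Replicate 1 of each group was low for the family. In WT replicate 1, 7 of 46 members were above their group's mean and the median deviation was -0.08 on the log2 scale. In KO replicate 1, 9 of 46 were above it, with a median of -0.09. In the other 4 libraries 33 to 38 members were above. Without WT replicate 1 the members' median log2 fold change was -0.01, and without KO replicate 1 it was 0.10 with 15 higher and 5 lower. Without WT replicate 2, 13 were higher and 5 lower.

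The 3 members with the largest falls lay among genes whose medians were below 0. Of all tested genes, 22.8% were higher and 21.6% lower. Within 1 megabase of NDUFAF1 on chromosome 15, 44 other tested genes had a median log2 fold change of -0.63, with 29 lower and 1 higher. Around NDUFA12 on chromosome 12, 22 genes had a median of -0.34, with 9 lower and 0 higher. Around NDUFA4L2, also on chromosome 12, 66 genes had a median of -0.24, with 32 lower and 6 higher. Each of the 3 had an estimate below the median of its neighbours.

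Among the members that rose, some had neighbours with a median above 0 and others did not. NDUFV2, on chromosome 18, had 17 neighbours with a median of 0.31, of which 5 were higher and 2 lower. The shares over all tested genes were 22.8% higher and 21.6% lower. NDUFS8 rose among 50 neighbours with a median of 0.04, and NDUFS1 rose among 10 neighbours with a median of -0.29. Over the 46 members, Spearman's rho between a member's log2 fold change and its neighbours' median was 0.28, given as a description because all values come from the same 6 libraries. The part of the neighbourhood in these changes was not tested.

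**Figure D4:**
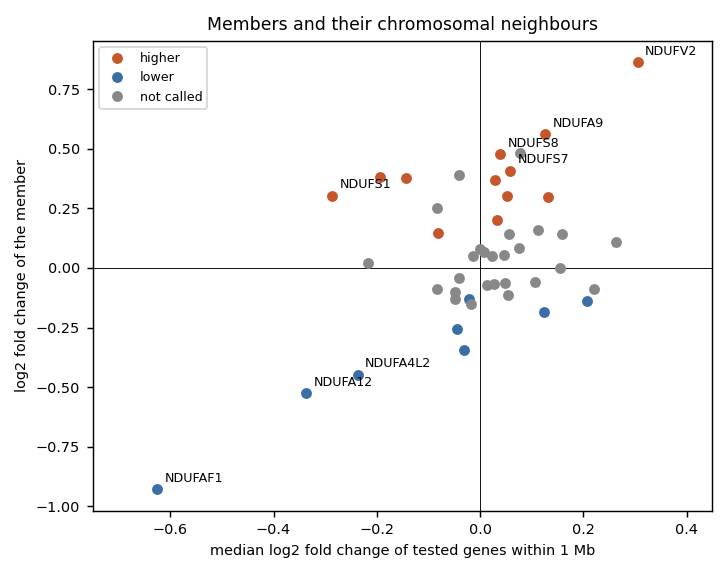
Each member's log2 fold change (y axis) against the median log2 fold change of the other tested genes within 1 megabase (x axis), coloured by call. NDUFAF1, NDUFA12 and NDUFA4L2 lie low on both axes, NDUFV2 lies high on both, and NDUFS1 rose among neighbours with a median of -0.29.

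Calls were also counted by coding length. Of the 23 members with a coding length above the family's median of 447 bases, 11 were higher and 3 lower. Of the 23 at or below it, 1 was higher and 5 were lower. Among protein-coding genes above that length 28.9% of 12257 were higher and 28.3% lower, and at or below it 21.4% of 912 were higher and 23.9% lower. The difference between the longer and shorter members was not tested. Spearman's rho between coding length and log2 fold change was 0.49 over the 46 members and -0.01 over 13169 protein-coding genes, both as descriptions over genes of the same libraries. With the whole transcript in place of its coding part, rho over the members was 0.09. Scaling that follows transcript length in each library, an alternative chosen after seeing the data, gave 15 higher and 8 lower. Core subunits have longer coding sequences than most accessory subunits, so role and length overlap in this family.

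**Figure D5:**
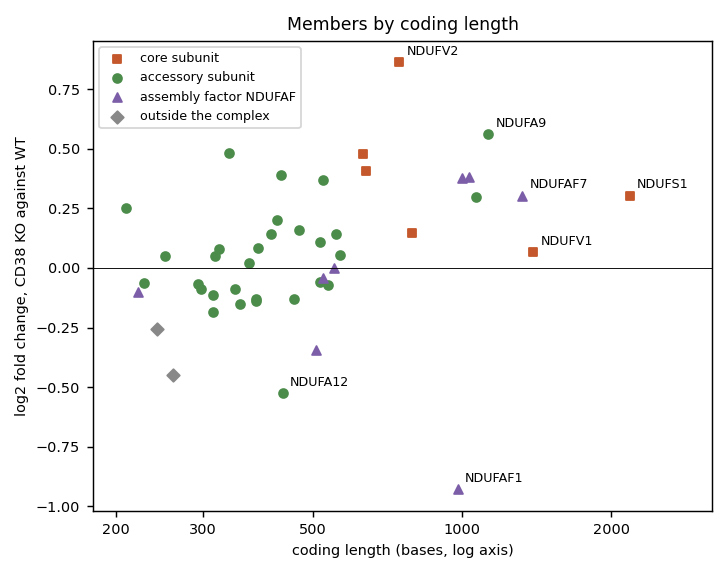
Log2 fold change (y axis) of each member against the coding length of its principal transcript in bases (x axis, log scale), with symbols by role. With TMM scaling, members above 600 coding bases lie above 0 apart from NDUFAF1, while NDUFV1 lies just below 0 with library size alone; shorter members lie on both sides.

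The promoters of these genes were searched for words of factors known to bind the promoters of respiratory genes. RefSeq sequence from 250 bases before to 50 bases after the start (build GRCh38.p14) matched 40 of the 47 members. The NRF1 word, GCGC and TGCGC with any base between them, was found on either strand in 7 of the 40 (17.5%) and in 6.98% of 27305 genes. The YY1 word AAGATGGCG, which contains the ATG with which many coding sequences open, was found in 7 (17.5%) and in 2.14%. The ETS word CCGGAAG, of the type that GABPA binds, was found in 7 (17.5%) and in 12.2%, and TATAAA in 3 (7.5%) and in 14.0%. No match of one word overlapped a match of another in these promoters. The 27305 genes were not limited to protein-coding or expressed genes, while the members are all protein-coding, so the shares come from unlike sets. A match is a description of letters and not a binding site.

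Members of either direction carried the NRF1 and YY1 words. The NRF1 word was in the promoters of 3 of 11 higher and 1 of 6 lower members, and the YY1 word likewise in 3 of 11 and 1 of 6. The ETS word was in 2 of 11 and 0 of 6. The NRF1 word was in none of the 6 core promoters available, the YY1 word in that of NDUFS7 and the ETS word in those of NDUFS1 and NDUFS3.

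Promoters of 5 members are shown because they carry the same words beside opposite changes. Capitals mark the matched words, and positions count from the start of transcription. The YY1 word begins at base 18 in NDUFS7 (higher, chr19:1383657-1383956, plus strand), at base 22 in NDUFS4 (higher, chr5:53560389-53560688, plus strand) and at base 26 in NDUFA6 (lower, chr22:42090723-42091022, minus strand). The NRF1 word begins at base -80 in NDUFA9 (higher, chr12:4648864-4649163, plus strand), beside TATAAA at -220 and the YY1 word at 11, and at base -116, on the opposite strand, in NDUFA12 (lower, chr12:95003648-95003947, minus strand).
NDUFS7: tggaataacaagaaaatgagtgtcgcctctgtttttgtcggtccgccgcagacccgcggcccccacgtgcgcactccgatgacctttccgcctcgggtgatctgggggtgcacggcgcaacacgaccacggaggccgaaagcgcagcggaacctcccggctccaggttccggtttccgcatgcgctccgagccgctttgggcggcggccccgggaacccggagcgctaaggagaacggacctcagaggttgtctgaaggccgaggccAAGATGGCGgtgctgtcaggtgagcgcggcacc
NDUFS4: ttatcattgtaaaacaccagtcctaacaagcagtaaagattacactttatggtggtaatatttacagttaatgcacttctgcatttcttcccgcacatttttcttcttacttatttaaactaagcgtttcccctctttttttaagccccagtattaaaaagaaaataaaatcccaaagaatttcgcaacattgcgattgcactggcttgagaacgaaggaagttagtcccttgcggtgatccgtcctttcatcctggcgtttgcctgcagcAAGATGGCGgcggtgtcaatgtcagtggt
NDUFA6: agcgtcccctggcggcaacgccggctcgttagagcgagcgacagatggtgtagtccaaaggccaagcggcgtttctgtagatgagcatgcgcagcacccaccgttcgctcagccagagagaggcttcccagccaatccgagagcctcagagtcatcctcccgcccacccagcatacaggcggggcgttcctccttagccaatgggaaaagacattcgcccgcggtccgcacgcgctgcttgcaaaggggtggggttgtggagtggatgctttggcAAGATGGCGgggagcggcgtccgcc
NDUFA9: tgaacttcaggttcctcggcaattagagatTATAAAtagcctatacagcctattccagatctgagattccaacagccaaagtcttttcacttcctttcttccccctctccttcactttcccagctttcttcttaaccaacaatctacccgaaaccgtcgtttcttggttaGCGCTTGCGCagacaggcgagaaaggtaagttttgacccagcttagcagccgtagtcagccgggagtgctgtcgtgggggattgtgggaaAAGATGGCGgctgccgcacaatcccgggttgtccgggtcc
NDUFA12: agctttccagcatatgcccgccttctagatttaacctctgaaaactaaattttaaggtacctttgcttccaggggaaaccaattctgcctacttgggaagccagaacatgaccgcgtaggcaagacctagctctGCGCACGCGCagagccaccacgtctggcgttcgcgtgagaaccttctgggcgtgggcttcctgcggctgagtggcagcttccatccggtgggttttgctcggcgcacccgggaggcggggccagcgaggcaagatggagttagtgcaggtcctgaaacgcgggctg

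Genes that work with complex I changed in both directions as well. Of all tested genes, 22.8% were higher, 21.6% lower and 44.4% called in either direction. Of 15 other assembly factors, 3 rose and 5 fell. AIFM1, which imports subunits through its partner CHCHD4, had 100.1 ± 0.543 CPM in WT against 153 ± 5.42 in CD38 KO (SD, n = 3 each) and rose by 0.61 on the log2 scale (adjusted p = 1.66e-10, edgeR). CHCHD4 itself fell by 0.26, FOXRED1 by 0.33 and COA1 by 0.27. The genes listed for making iron-sulfur clusters and the cofactors FMN and FAD had 1 higher and 6 lower of 14 tested, with a median of -0.16. These lists are short, and none was tested as a group. ISCU, the scaffold on which clusters are built, went from 667 ± 23.4 CPM in WT to 322 ± 10.2 in CD38 KO (SD, n = 3 each), a log2 fold change of -1.05 ± 0.039 (adjusted p = 7.50e-15, edgeR). It too lay among genes with a median below 0, 27 neighbours at -0.42, of which 12 were lower and 3 higher. ISCA1, LYRM4 and the FAD synthase FLAD1 fell by 0.48, 0.32 and 0.20 on the log2 scale. ISCU was lower in the same libraries in which 5 of the 6 core subunits were higher. A relation between these changes was not tested.

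Nuclear subunits of complexes II to V also had no call at 2-fold or more. Of 39 listed genes tested, 15 were higher and 4 lower (48.7% called, beside 44.4% of all tested genes). The list counted the electron carrier cytochrome c (CYCS, higher by 0.33 on the log2 scale), which is not a subunit. It left out NDUFA4, described above. The median log2 fold change was 0.09 and the median size was 0.17. Of the 36 nuclear subunits of complex I, 9 were higher and 4 lower (36.1% called), with a median size of 0.14, and the difference between the lists was not tested. UQCRC1 and UQCRC2, core proteins of complex III, rose by 0.44 and 0.38, and COX5A of complex IV rose by 0.49 on the log2 scale. SDHC, a membrane anchor of complex II, fell by 0.45. The 4 supercomplex factors had no call.

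Other enzymes that use NADH or reduce ubiquinone had 2 higher and 4 lower of 9, beside 22.8% and 21.6% of all tested genes. NQO1, a cytosolic quinone reductase, had 13.5 ± 0.657 CPM in WT against 5.19 ± 0.0725 in CD38 KO (SD, n = 3 each), a log2 fold change of -1.38 (adjusted p = 3.71e-10, edgeR). SQOR, which feeds electrons from sulfide to ubiquinone, fell by 0.88 and AIFM2, a ubiquinone reductase of the plasma membrane, by 0.47, and CHDH, the choline dehydrogenase, rose by 0.39. Among 12 regulators of respiratory genes, 5 were higher and 4 lower (22.8% and 21.6% of all tested genes). The coactivator PPARGC1A rose from 15.3 ± 1.27 CPM in WT to 23.2 ± 1.68 in CD38 KO (SD, n = 3 each), a log2 fold change of 0.61 (adjusted p = 4.39e-06, edgeR), and GABPA rose by 0.51. MYC fell by 0.25 and TFAM, which packages and transcribes mitochondrial DNA, by 0.28. NRF1 was at -0.05 (95% interval -0.20 to 0.09, adjusted p = 0.57, edgeR).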

How the data were processed

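The authors deposited unnormalised read counts for each gene, with a column for each of the 6 libraries. Each library used 10 ng of RNA, per the labels' protocols. STAR 2.7.9a, DESeq2 and Partek stand in the submitters' processing notes with no role. Not given in the sources used here are the build, annotation, counting program and strand setting. The table's 60871 lines repeated 200 identifiers, each kept once. In R 4.3.3, edgeR 4.0.16 was run with TMM factors, filterByExpr, robust quasi-likelihood dispersions and no covariate, and p-values were adjusted by Benjamini-Hochberg over all 20120 tested genes. The SE is the log2 fold change divided by the square root of its F statistic. The script was tested on simulated data. Intervals and limits from counts of 0 cover counting error only.

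Transcript lengths, coordinates and overlaps came from GENCODE 29 (GRCh38), which may not be the annotation counted with; principal transcripts were chosen by APPRIS. Of 152 entries in the gene lists, 2 (ATP5MJ and ATP5MK) matched no symbol. One gene that the rule found and 1 marker gene are not reported here. The members and lists were chosen with earlier results of these data known. Values are given for core subunits, up to 10 called members a direction, assembly factors, genes outside the complex, MT-ND genes and up to 4 genes of each other list with the smallest adjusted p; NDUFA11, overlapping genes, the pseudogene and the uncalled members given values were chosen after seeing them. Alternatives changed the scaling (RLE, upper quartile, library size alone), the filter, the test (DESeq2 1.42.0, limma-voom with limma 3.58.1), the block, the genes in the fit and the libraries, and 2 added after seeing the data used pseudogene counts and transcript length.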

Additional observations from a re-analysis of the deposited data

How the results depend on the processing

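Among 18 alternative analyses, higher members numbered 10 to 15 and lower members 5 to 12. Of the 20 called members, 15 kept their direction and call in all 18, and 5 (NDUFA6, NDUFA11, NDUFB2, NDUFB11 and NDUFS3) lost it in at least 1; no called member reversed. Of the 26 uncalled, 8 passed and 9 changed sign in at least 1 alternative. With each library left out in turn, 10 to 15 members were higher and 5 to 9 lower, and the median log2 fold change ran from -0.0109 (without WT replicate 1) to 0.103. With library size alone the median was -0.0319, and the log2 fold changes that changed sign were -0.0346 for NDUFA3, -0.0291 for NDUFB5, -0.0348 for NDUFS5, -0.0617 for NDUFS6, -0.0157 for NDUFV1 and -0.00302 for NDUFV3. NDUFAF3, at 0.00, was -0.00351 with RLE factors, -0.0124 with upper-quartile factors, -0.0815 with library size alone, -0.0144 with no filter, -0.00877 without mitochondrially encoded genes, -0.0039 among protein-coding genes only, -0.00351 with DESeq2, -0.000285 with limma-voom and -0.00857 with length-dependent offsets. Leaving out a library gave -0.0428 to 0.0557 for NDUFAF3 and -0.0203 to 0.142 for NDUFA3, -0.144 to 0.0126 for NDUFA5, -0.0104 to 0.117 for NDUFB5, -0.143 to 0.0126 for NDUFC1, -0.0129 to 0.122 for NDUFS5 and -0.0336 to 0.0861 for NDUFS6. The cause of these moves was not tested. Over all tested genes, deviations of libraries with the same number correlated at 0.034, -0.008 and -0.021. Not every library correlated best with its own number. Among the members, replicate 1 was low in both groups, and a replicate effect shared by this family was not tested. The fit with the replicate number as a replicate block gave 15 higher and 8 lower and a median of 0.0531. None of the 27 related genes followed through the alternatives lost its call. Depth limits NDUFA7 and NDUFA13. For NDUFV2 the size of the change is uncertain because the assignment of reads between it and NDUFV2P1 is not given. The design has 1 clone, so no result separates the knockout from that clone.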
